A study of Caenorhabditis elegans with 2 samples.

Results

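The regions described here are the anti-GFP chromatin immunoprecipitation (ChIP) regions of the tagged protein Y105C5A.15 whose summit lay outside every promoter window of the worm genome. Overlapping peaks of the authors' main list over both replicates were merged into 1023 regions, and the summit of the strongest peak placed each region. A region was kept when that summit was not within 1000 bases upstream to 200 bases downstream of the start of any annotated gene, small RNA genes and pseudogenes included. By this rule 369 of the 1023 regions (36.1%, 95% exact Clopper-Pearson interval 33.1 to 39.1%) were outside. Position was the rule, so the share itself is a description. Of the 369, 129 were intergenic, 113 lay in introns, 74 in coding exons, 37 in 3′ UTRs, 8 in 5′ UTRs and 8 in exons of non-coding genes or pseudogenes.

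The chromatin came from 2 biological replicates of a single group: whole Caenorhabditis elegans larvae of stage L4, aged 48 hours, that had been synchronised as starved first-stage larvae after bleaching. The strain OP773 carries the integrated transgene wgIs773, which expresses Y105C5A.15 with TY1, EGFP and 3xFLAG tags and a rescuing unc-119(+) copy, in the unc-119 mutant tm4063. All animals come from this 1 transgenic line, and no untagged or input sample was analysed here (the authors' lists name a control alignment among their inputs), so antibody signal that does not depend on the tagged protein cannot be told apart from binding at any region. Libraries were of whole animals, so occupancy in fewer cells and lower occupancy per cell cannot be told apart either, and the lists give no read counts, so depth is unknown and intervals cover the counting of regions only.

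As background, a transcription factor ChIP map in worms is usually richest just upstream of gene starts. Binding away from starts can lie in introns and intergenic sequence, where enhancers are found, and at internal promoters of longer genes. It can also lie at repeated sequence. Genes of RNA polymerase III, such as tRNA genes, hold their control elements inside the transcribed part, as an A box and a B box. Heat shock elements are runs of TTC and GAA units in alternating direction, and are bound by the heat shock factor HSF-1.

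Many of the strongest regions shared sequence with each other. Alignment of the 200-base windows around the 369 summits with each other put 66 regions (17.9%) into 13 families of related sequence, of which 5 had at least 4 members. The stretches below are 30 bases each, written 5′ to 3′, from the RefSeq genome of build WBcel235 (ce11), and they show the element that members of a family have in common on different chromosomes. The first family of 17 regions held words of the internal promoter of tRNA genes. No annotated small RNA gene lay within 100 bases of any of them. The rule for outside regions made this nearly certain, since only 1 of all 369 lay that close to one. Capitals mark an A box word, written as TGG, any 3 bases, AG, any base and GG, in 15 of its 17 windows of 100 bases. The word was chosen after the families were seen, as were the heat shock and satellite words and the B box words GGTTCAA and GGTTCGA below.

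near ZK546.7 (chrII:4928537-4928566, minus strand): tatcccgcaTGGCCGAGTGGttattgcgta

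near sdz-25 (chrIV:8412720-8412749, minus strand): tcacccacaTGGCCGAGTGGttagtgcgta

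near C04E7.7 (chrX:351596-351625, minus strand): tctcccgcaTGGCCGAGTGGttagtgtgta

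The next family of 15 regions was built from heat shock units. Capitals mark 3 alternating units, TTC, any 2 bases, GAA, any 2 bases and TTC, or the reverse complement of that word, which stood in all 15 of its windows of 100 bases.

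near fbxa-190 (chrX:1375205-1375234, plus strand): tctcgatttTTCTAGAAAGTTCtgaacatt

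near Y41E3.460 (chrIV:15059354-15059383, plus strand): aaagttttgGAACATTCCAGAAttttctcg

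in an intron of tir-1 (chrIII:3897291-3897320, plus strand): aaaaatcgaGAAAATTCTGGAAcgttccag

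near Y54G2A.41 (chrIV:2756249-2756278, plus strand): aaccttctgGAAAATTCGAGAAaactctgg

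The next family, of 7 regions, GC-rich at a median of 56%, held the same stretch nearly letter for letter at places on different chromosomes. Capitals mark the 12-base word found in the windows of all 7 members, taken as the word that most of them share.

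near ftn-1 (chrV:7548659-7548688, minus strand): gatcaccggAAGACGGTCTGGaggaagacc

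in an intron of pmt-2 (chrV:4632933-4632962, minus strand): gatcaccggAAGACGGTCTGGagcaagacc

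in an intron of K08C7.1 (chrIV:10658551-10658580, plus strand): gatcaccggAAGACGGTCTGGagcaagacc

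Another family, of 6 regions, was a satellite, a tandem repeat with many units in a row, and capitals mark a word that stood in all 6 windows.

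near Y54F10AL.1 (chrIII:2497961-2497990, plus strand): atggtGAAGCCAGAGAGtaaaatattctgt

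in an intron of Y32F6A.5 (chrV:10450571-10450600, minus strand): atattctgtGAAGCCAGAGAGtagaatata

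The last, with 4 regions, was another tandem repeat, in which capitals mark the 12-base word in the windows of all 4 members.

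near T02H6.3 (chrII:696944-696973, minus strand): cgcgatgggtctcACCACGATGGGTctcac

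near the piRNA gene 21ur-1671 (chrIV:13922467-13922496, minus strand): atgggtctcACCACGATGGGTtttccacga

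The strongest coding exon and intron regions belonged to none of these families. Their summits are shown for comparison, with no word marked.

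in a coding exon of dos-3 (chrIII:835960-835989, plus strand): acggattccgggtgataatagtatttgtta

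in an intron of cmk-1 (chrIV:1831369-1831398, plus strand): ctgcctaggatctgggttagacctgcctga

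Signal here is the value that the authors' peak caller gave to the strongest peak of a region. No source used here gives its scaling, so it serves to rank regions within 1 list. Nearly all regions also have a signal in the ranked list of replicate 1 and in that of replicate 2, each on a scale of its own, and these values were below the first signal for every member. The replicate values are therefore printed side by side, with no mean or SD across the 2 lists. Over the 369 regions the signal had a median of 59.9 and ran from 31.1 to 185, with quartiles of 54.3 and 71.5. The 345 regions inside promoter windows that lay away from small RNA genes had a median of 60.9. The 30 strongest outside regions, with signals of 98.6 or more, were 16 intergenic, 9 intronic and 2 coding exon regions, with 1 each in a 3′ UTR, a 5′ UTR and a non-coding exon. Of these 30, 16 belonged to a sequence family, 7 of them to the heat shock word family.

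**Figure D1:**
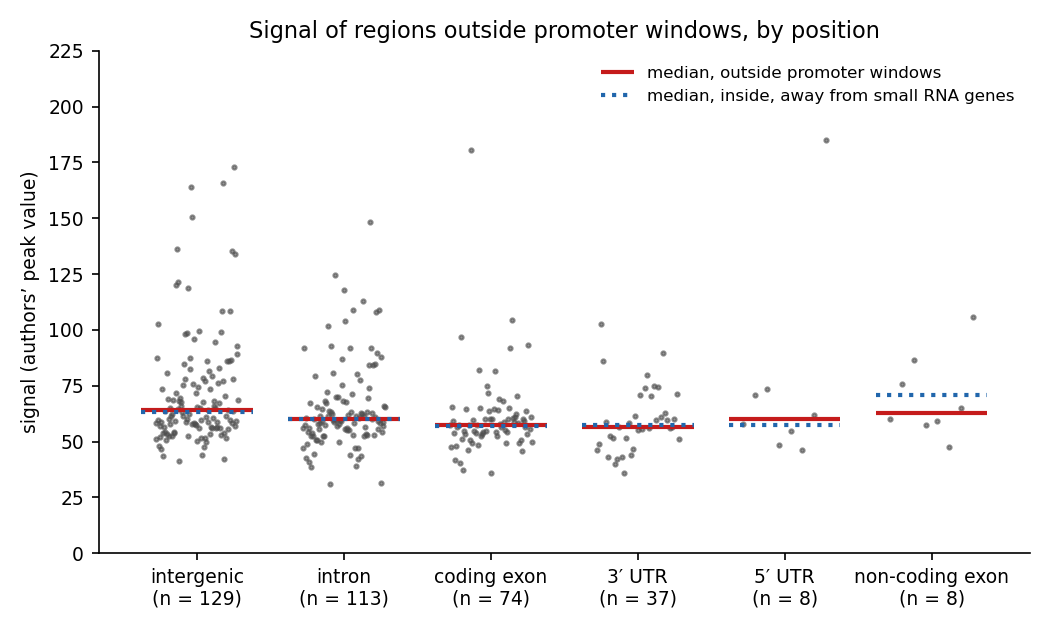
Signal of each region outside promoter windows (points; the authors' peak value, y axis) by the position of its summit (x axis, with the number of regions). Red lines are the medians of these regions and dotted blue lines those of regions inside windows away from small RNA genes; intergenic regions had a median of 64.2 and 3′ UTR regions 56.6, and each class reached well above its median.

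Intergenic regions had the highest median among the 4 large classes, 64.2, against 59.9 in introns, 57.6 in coding exons and 56.6 in 3′ UTRs. No test of these differences was run, since regions of the same chromatin samples are not replicates. Inside windows and away from small RNA genes, the medians were 63.3 for 180 intergenic regions, 60.3 for 34 intronic ones, 56.8 for 63 in coding exons and 57.6 for 15 in 3′ UTRs; the order was the same except that coding exons and 3′ UTRs changed places.

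Each replicate also has a thresholded list called from that replicate by itself, here the list of replicate 1 alone or replicate 2 alone, and a region can be in both. The conservative list holds regions that repeat between the replicates. Of the 369 outside regions, 88 (23.8%, interval 19.6 to 28.5%) overlapped a region of replicate 1 alone, against 31.5% of all 1023 regions. For replicate 2 alone it was 83 (22.5%, interval 18.3 to 27.1%) against 307 of all 1023 (30%). For the conservative list it was 238 (64.5%, interval 59.4 to 69.4%) against 70.7%. Regions inside windows and away from small RNA genes were near the outside ones, at 27.8%, 23.2% and 63.2%.

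These shares were lowest in coding exons and highest in intergenic sequence among the 4 large classes. Coding exon regions overlapped replicate 1 alone in 14.9% and replicate 2 alone in 12.2%, intronic regions in 20.4% and 21.2%, and intergenic regions in 31.0% of each. Signal was lower in coding exons too, and its part in these shares was not tested. In all, 38 of the 369 regions (10.3%) were in both replicates' own lists, 133 (36.0%) in at least 1 and 236 (64.0%) in neither. Over all 1023 regions these shares were 16.6%, 44.9% and 55.1%. Inside windows and away from small RNA genes they were 12.8%, 38.3% and 61.7%, near the outside ones.

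Signals in sequence families and in the rest are given here as descriptions, without a test. The 66 family regions had a median signal of 78.2, and the 303 regions in no family had 59.0. Of the family regions, 42.4% overlapped a region of replicate 1 alone and 45.5% one of replicate 2 alone, while the regions in no family reached 19.8% and 17.5%. Reads from repeated sequence can be placed at more than 1 copy, and the sources used here do not say how the authors treated such reads. The part of read placement in these signals was not tested.

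Among the families of at least 4 members the heat shock word family had the highest median signal, 97.9 over its 15 members and a range of 48.4 to 185. The strongest outside region of all, rank 7 of the 1023, was its member in the 5′ UTR of pck-2 (I, 7869005 to 7869149), a gene for phosphoenolpyruvate carboxykinase, which opens gluconeogenesis. Its signal was 185, with 87.0 in replicate 1 and 107 in replicate 2. The intergenic member 1974 bases from ttm-5 (I, 14686525 to 14686780) followed with 173, and had 87.2 in replicate 1 and 87.4 in replicate 2.

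Both next intergenic members lay between converging gene ends. The first lay 547 bases from fbxa-190, an F-box gene (chrX:1375132-1375387), and had a signal of 166, with 72.4 in replicate 1 and 91.3 in replicate 2. The other lay 93 bases from Y41E3.460 (chrIV:15059240-15059495) and had 135, with 52.4 and 72.0. These 4 strongest members were in both replicates' own lists.

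In introns this family had 4 members. An intron of tir-1, the worm SARM1 gene of innate immunity, held a pair of members 3977 and 4367 bases past the gene start. The nearer had a signal of 108, with 66.5 in replicate 1 and 51.3 in replicate 2. The farther had 109, with 81.5 and 31.2, and was missing from the list of replicate 2 alone. The other intronic members, in cua-1 (a copper transporter, 55.5) and oat-1 (an organic anion transporter, 80.4), ranked lower.

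Of the 15 heat shock word members, 11 overlapped a region of replicate 1 alone, 8 one of replicate 2 alone, 7 both and 3 neither. In the windows of all 15, 50% or more of the bases were soft-masked, the mark of repeats in the genome file. Each window aligned to between 11 and 716 further places at 90% identity or more over at least 90 bases, where every alignment start inside a tandem array was counted. The 3-unit word itself was in 17 outside windows of 100 bases (4.61%). These include all 15 of this family, after which the word was chosen, so that share is no independent count. It was in 5 of 345 windows inside promoters away from small RNA genes (1.45%) and in 20 of 738 flanking windows 300 bases to each side (2.71%). Of 65580 tiled windows outside promoters, 575 held it (0.877%).

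Most places with the same units had no region. Runs of at least 3 such words with starts less than 100 bases apart were found at 593 places in the genome, and 15 of them (2.53%, interval 1.42 to 4.14%) overlapped a region of the main list. The places with a region were longer, with a median span of 598 bases against 93 bases for the places without one. A longer place has more bases that can overlap a region, so this comparison favours long places by construction. The part of span was not tested. Below the thresholded list, 91 of the 593 overlapped a peak of the ranked list of replicate 1 and 110 one of replicate 2, with 63 in both. Ranked lists are long, with 87981 peaks in 1 of those over both replicates. No share over other places of the genome is given here, so these counts cannot be told apart from background.

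The tRNA-like family was the most widespread, with its 17 members on all 6 chromosomes, 9 intergenic, 7 intronic and 1 in a 5′ UTR. Its median signal was 70.3 and its range 49.7 to 99.7. The strongest member lay 2338 bases from the pseudogene ZK546.7 (chrII:4928407-4928662), with 46.5 in replicate 1 and 57.0 in replicate 2. Next came the member in an intron of trp-1, a TRPC-type calcium channel gene, with a signal of 91.7 and replicate values of 35.9 and 52.0. In the intron of spe-43, a sperm gene, the values were 46.4 in replicate 1 and 36.3 in replicate 2.

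Of these 17 members, 3 were in the list of replicate 1 alone, 5 in that of replicate 2 alone, 0 in both and 14 in the conservative list. Among all outside regions the shares were 23.8%, 22.5%, 10.3% and 64.5%, and counts out of 17 are too small to set apart from them. The A box word stood in 15 of the 17 windows and a B box word (GGTTCAA or GGTTCGA) in 10, with both in 9. Over all outside windows the A box word was in 33 (8.94%), which include the 15 of this family, after which it was chosen. It was in 15.3% of all 654 inside windows and 4.35% of those away from small RNA genes. Flanking windows held it in 0.542% and tiled windows in 0.723%. It can overlap the 6-base words GGCCGA and ACCACT, which were in 7.32% and 9.21% of outside windows and 10.2% and 19.6% of all inside windows. Inside windows away from small RNA genes held them in 6.09% and 5.80%. Flanking windows held these words in 1.36% and 3.52% and tiled ones in 1.81% and 3.23%.

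In the GC-rich family all 7 members were in the conservative list and in the list of at least 1 replicate. Over all 1023 regions these shares were 70.7% and 44.9%, and the family was picked after its values were seen. The median signal of the family was 89.7, from 67.9 to 113. The strongest lay in an intron of ptr-17, a patched-related gene (I, 12840197 to 12840452), with 57.1 in replicate 1 and 47.5 in replicate 2. The member in an intron of pmt-2, a methyltransferase gene of phosphatidylcholine synthesis, had a signal of 92.9 with replicate values of 51.4 and 41.6. The member 1112 bases upstream of ftn-1, a ferritin gene for iron storage, had 99.0 with 40.5 and 51.8. The 7 windows had between 16 and 19 further copies, and in 0 of them were 50% or more of the bases soft-masked.

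The satellite family held 2 neighbouring regions on chromosome III, 2 on I, another on III and 1 in an intron of Y32F6A.5 on V. The strongest had a signal of 134 (chrIII:2497854-2498109), with 70.4 in replicate 1 and 63.6 in replicate 2. The marked word was in 6 outside windows (1.63%), all of them of this family, after which it was chosen. It was in 0 of 654 inside windows, 10 of 738 flanking windows (1.36%) and 0.0625% of tiled windows, so the flanks held it nearly as often as the summits. Of the 34 places in the genome with at least 3 of these words close together, 4 overlapped a main region, while 22 overlapped a ranked peak of replicate 1 and 21 one of replicate 2. The ranked counts have no background share beside them here either. The other tandem repeat family, of 4 regions, had a median of 72.6, and 0 of its members were in the list of replicate 1 alone against 2 in that of replicate 2 alone.

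**Figure D2:**
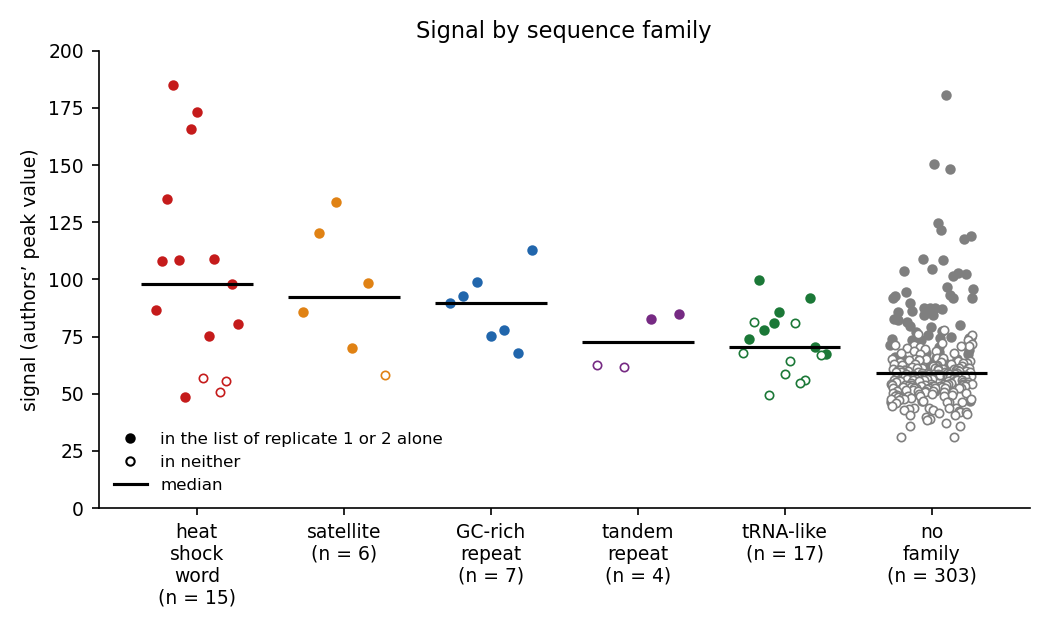
Signal (the authors' peak value, y axis) of the outside regions in each sequence family of at least 4 members and of the 303 regions in no family (x axis). Filled points overlap a region of replicate 1 or replicate 2 alone, open points overlap neither, and lines are medians, which run from 97.9 in the heat shock word family to 70.3 in the tRNA-like family and 59.0 outside families.

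A further pair of related intergenic regions ranked high without being a large family. One lay 1452 bases upstream of C14C11.7 (chrV:5667477-5667552) and had a signal of 164, with 75.1 in replicate 1 and 89.6 in replicate 2. The other lay 155 bases past the end of F09E5.7 (chrII:5353736-5353991) and had 136, with 58.3 and 77.1. Both held the A box word and both were in each replicate's own list. Neither window had a copy elsewhere at 90% identity.

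A near-identical copy of the 100-base window, with at least 90% identity over at least 90 bases, stood elsewhere in the genome for 23.3% of the 369 regions, against 11.9% of regions inside promoters away from small RNA genes and 13.5% of tiled windows outside promoters. At 100% identity over the whole window it was 1.36% of the 369, against 0 of the 345 inside regions away from small RNA genes (exact interval up to 1.06%). At the 90% limit the share was 32.6% for intergenic and 28.3% for intronic regions, 6.76% in coding exons and 0 of 37 in 3′ UTRs, where the exact interval reaches 9.49%. Windows with 50% or more soft-masked bases were 22.2% of the outside regions, 8.12% of the inside ones and 32.0% of tiled windows. The GC content of the outside windows had a median of 44%, below the 49% of inside windows and above the 35% of tiled ones. Windows in 3′ UTRs were at 36%.

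Other short words were also unevenly spread. GAGAGA, the core of GAGA elements, was in 9.76% of outside windows, 18.0% of inside windows away from small RNA genes, 7.45% of flanking windows and 4.63% of tiled windows. CCGCCC, the core of GC boxes, was in 4.88%, 6.09%, 1.36% and 1.49%. The B box words GTTCGA and CGAACC, which overlap on opposite strands, were in 6.23% and 4.61% of outside windows, the same shares as in the flanks. They were in 3.68% and 1.65% of tiled windows, and in 23.5% and 22.2% of all 654 inside windows. Inside windows away from small RNA genes held them in 5.80% and 4.93%, near the outside shares. The B box word GGTTCAA was in 4.88% of outside windows, 8.10% of all inside windows, 1.49% of flanking windows and 1.39% of tiled windows. Away from small RNA genes, inside windows held GGTTCAA in 2.61%. TATAAA was in 5.69% of outside, 9.08% of flanking and 10.5% of tiled windows, and a run of 8 T was in 5.15%, 12.3% and 12.7%. GC content differs between these sets of windows, and its part in the word counts was not tested.

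Intergenic regions lay a median of 574 bases from the nearest gene and at most 8489. Of the 129, 52 lay between converging gene ends, 67 between an end and a start and 9 between a pair of starts. Away from the families, the strongest was 1451 bases upstream of the tRNA gene W02H3.t1 (chrX:11094094-11094349), with a signal of 151 and replicate values of 77.0 and 68.3. A narrow region 6 bases past the end of hsp-1, the constitutive Hsp70 chaperone gene (chrIV:17281296-17281380), had a signal of 121, with 60.1 in replicate 1 and 62.9 in replicate 2. The region 1295 bases from hpk-1, a homeodomain-interacting protein kinase gene (chrX:4209148-4209403), had 119, with 45.8 in replicate 1 and 69.1 in replicate 2. These 3 regions were in both replicates' own lists. The other intergenic regions among the 30 strongest were near pqn-21 (120.2, satellite family), Y54G2A.41 (109, heat shock word family), C36E6.8 (109), F58D12.1 (102) and Y54F10AM.8 (98.6, satellite family).

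Introns held 113 regions, or 4.17 per Mb of intron outside windows. The introns were long: of 110 that could be measured, the median was 1757 bases, against 68 bases over all introns of coding genes, and 44 of the 110 were the first intron of a transcript. The median intron base of the genome, in comparison, lies in an intron of 1061 bases. The strongest intronic region was in cmk-1, the calcium/calmodulin-dependent kinase I gene (chrIV:1831256-1831511), with a signal of 148 and replicate values of 77.0 and 70.9.

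T26A8.4 (chrIV:8431664-8431919) followed with 125 and replicate values of 61.9 and 57.4. In tos-1, a gene known for the alternative splicing of its transcripts, the strongest of 3 intronic regions had 118, with 46.0 in replicate 1 and 71.9 in replicate 2. In mom-1, the Porcupine gene needed for Wnt secretion, the signal was 109, with 42.5 and 69.7. In zip-7, a bZIP transcription factor gene, it was 104, with 54.1 and 53.3. R107.5 had 102, with 54.7 and 41.0.

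Coding exons held 74 regions, or 4.07 per Mb of coding sequence outside windows, the lowest density of any class. The strongest by far was in dos-3, which codes for a protein with the DOS motif of Notch co-ligands (chrIII:835920-835998). Its signal was 181, rank 9 of the 1023, with 74.4 in replicate 1 and 103 in replicate 2. The next coding exon region, in the bestrophin channel gene best-18, had 104, with 46.5 and 50.1. After F57F5.3 (96.6), the LysM domain gene lmd-2 (93.4) and C42D8.9 (91.9), the next signals were 82.2 in pck-2, 81.5 in the kinase gene mak-1 and 74.9 in ife-1, which codes for a cap-binding eIF4E protein.

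The 3′ UTRs held 37 regions in 2.09 Mb, or 17.7 per Mb, against 5.62 over all bases outside windows. Their summits lay a median of 118 bases from the gene end. The strongest was in lin-29, the zinc finger gene of the larval-to-adult switch (chrII:11917579-11917834), with a signal of 103 and replicate values of 53.1 and 47.8. Others were in Y43F8B.3 (89.7), klp-7, a microtubule-depolymerising kinesin (85.9), arrd-6, an arrestin domain gene (79.9), zig-11, an immunoglobulin domain gene (74.8), car-1, an RNA-binding protein gene (74.3), and ekl-7 (74.1). Of these 7 regions, only that of car-1 was in both replicates' own lists.

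Some converging neighbours both held a region. On III, the 3′ UTR of K11H3.3 held a region with a signal of 56.1, and that of its neighbour gpdh-2, a glycerol-3-phosphate dehydrogenase gene, one with 48.8. Of the 37 regions in 3′ UTRs, 24.3% overlapped a region of replicate 1 alone and 18.9% one of replicate 2 alone.

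The 8 regions in 5′ UTRs gave 17.1 per Mb, over 0.467 Mb. Of these, 7 lay within the promoter window of an annotated transcript start other than the gene start. After pck-2, the highest signals were 73.4 in T28F4.5, 70.9 in tent-5, a poly(A) polymerase gene, and 61.9 in vhp-1, a MAP kinase phosphatase gene. The other 4, in ell-1, erp-44.3, pck-2 and R10E11.6, ran from 46.4 to 57.9. In exons of non-coding genes, the ncRNA gene C30E1.9 on X held a pair of related regions with signals of 106 and 86.4. The stronger of these had 35.8 in replicate 1 and 68.0 in replicate 2. The pseudogene wago-2 (75.8) and the long non-coding RNA gene Y9D1A.1 (65.2) followed.

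**Figure D3:**
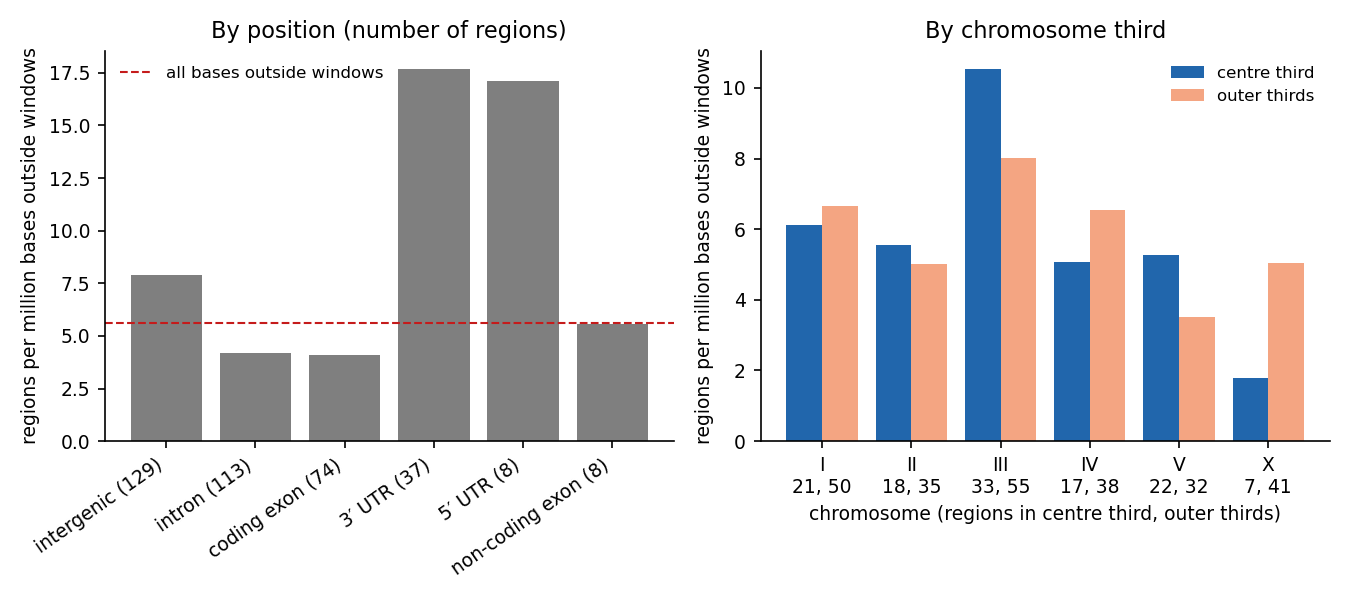
Regions outside promoter windows per Mb outside windows (y axes), by the position of the summit (left, with the number of regions; the dashed line is 5.62 over all such bases) and by the centre and the outer parts of each chromosome, cut into 3 equal lengths (right). The 3′ and 5′ UTR bars are above 17 per Mb, and the centre of X is the lowest bar on the right at 1.79.

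Along the chromosomes, III held the most regions, 88, or 8.81 per Mb outside windows, and X the fewest, 48, or 3.99 per Mb. Chromosome V was near X with 54 regions (4.07 per Mb), and I (71), IV (55) and II (53) lay between, at 6.49, 6.0 and 5.18. On IV only 52.4% of the bases were outside windows, and 14714 of the 15363 annotated piRNA genes lie there, each with a window of its own. On X the centre, the middle of 3 equal lengths, had 7 regions (1.79 per Mb) and the outer parts 41 (5.05). On V the centre was the denser part, at 5.28 against 3.51.

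The classes were spread unevenly over the chromosomes, with no test. On X, of 48 regions 27 were intergenic and 8 intronic, while on V 13 of 54 were intergenic and 25 intronic. Of the 88 outside regions found in replicate 1 alone, III still held the most, 19, against 17 each on I and IV. Of the 83 found in replicate 2 alone it held 16, below IV with 19 and I with 17.

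Host genes were long. The 240 regions within genes fell in 217 genes, 205 of them protein-coding, with a median length of 4829 bases against 2027 over all 19973 protein-coding genes. A longer gene has more bases beyond its promoter window, so this comparison favours long hosts by construction, and none weighted by length was made. Of the 205, 11 (5.37%) also had a main region in their own promoter window, against 387 of all protein-coding genes (1.94%). Among these 11 were mnk-1, sms-3, mom-1, eel-1, a ubiquitin ligase gene, and tba-2, an alpha-tubulin gene. The part of gene length in these shares was not tested.

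Of the host genes, 15 held more than 1 region. In pck-2 there were 4, at 2980, 3337, 3979 and 5586 bases past the gene start, with signals of 185, 48.4, 82.2 and 54.6. The last pair lay in coding exons and outside any family, and both were in the list of replicate 2 alone but not in that of replicate 1. The second, in the heat shock word family, had a signal of 48.2 in replicate 1 and no overlapping ranked peak in replicate 2.

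The MAP kinase-interacting kinase gene mnk-1 held 4 regions spread over its 12624 bases, with signals of 65.6, 55.1, 71.2 and 51.4 from its start to its end. In ncl-1, a gene that limits the size of the nucleolus, 3 of 4 regions were packed into the 3′ UTR, 17368, 17943 and 18322 bases past the start, with signals of 59.8, 39.9 and 61.5. The 3 regions of tos-1 lay within its first 2202 bases, and signal was highest at the one farthest from the start, at 48.9, 84.3 and 118. The remaining region of tir-1 was in its 3′ UTR, near the gene end, with a signal of 56.0.

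Genes with 2 regions were of several kinds. In sms-3, a sphingomyelin synthase gene, intronic regions 287 and 2004 bases past the start had signals of 86.9 and 72.2. In mak-1, a MAP kinase-activated kinase gene, a coding exon had 81.5 in front of a weaker intronic region, and a further intergenic region lay 102 bases past its end (58.0). The yolk protein gene vit-2 had 55.4 and 59.9 in coding exons, each window with 1 near-identical copy elsewhere. The other genes with a pair were arf-1 (a small GTPase of vesicle traffic), nono-1, hsp-110 (a chaperone), miz-1, mbk-2 (a DYRK kinase), srh-2 and C30E1.9, with signals from 40.6 to 106.

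**Figure D4:**
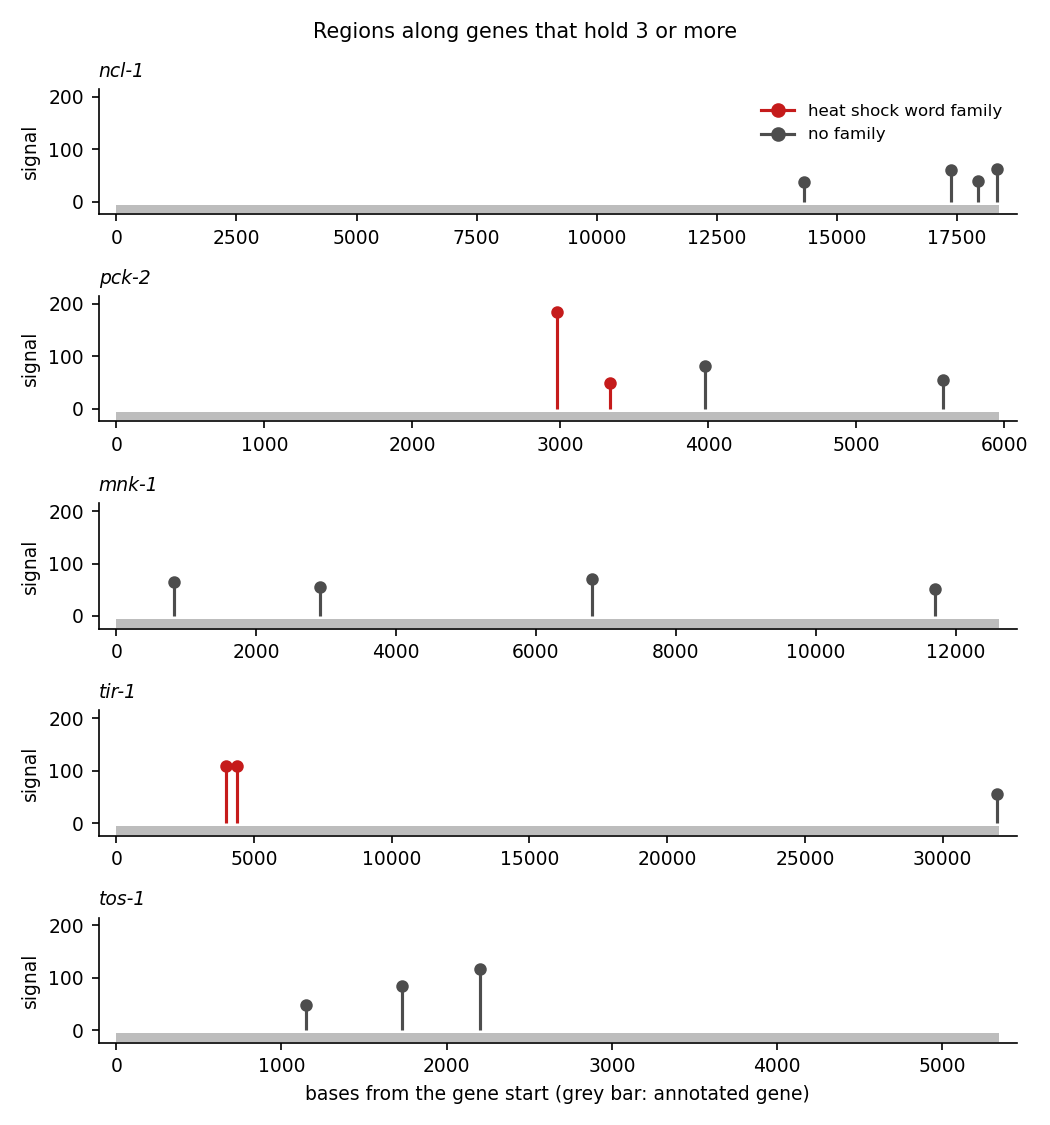
Signal (the authors' peak value, y axes) of the outside regions along the 5 genes that hold at least 3 of them, by distance from the gene start in bases (x axes; grey bars are the annotated genes). Red marks the heat shock word family, which holds both high regions of tir-1 and the highest of pck-2 (185), while 3 of the 4 regions of ncl-1 are packed at the gene end.

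Gene lists drawn up by gene name were read by how many of their genes held an outside region, with no test. The lists miss genes of the same kind under other names and hold some of other kinds, so a share describes the list and not the whole class. Over all protein-coding genes this share was 1.03%. Of 55 genes of RNA interference and Argonautes 3 did (5.45%), all in the 3′ UTR: csr-1, an Argonaute of germline gene licensing (71.2), hrde-1, a nuclear Argonaute of inherited silencing (70.9), and rde-12, a helicase gene (56.6). Of 81 genes of signalling pathways 4 did (4.94%), which were mom-1 (109), the polarity kinase gene par-1 (61.7), the 14-3-3 gene par-5 (61.1) and the cGMP-dependent kinase gene egl-4 (51.3). That list leaves out kinase and phosphatase genes that were hosts, among them cmk-1, mnk-1, mak-1, mbk-2 and vhp-1.

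A list of vesicle traffic and transport motor genes had 6 hosts of 170 (3.53%). They included the kinesin gene klp-7 (85.9), which acts on microtubules and not in vesicle traffic, the autophagy gene epg-9 (84.5), apb-3 of the AP-3 coat (68.0) and the dynamin gene dyn-1 (64.1). Of 115 vitellogenin and lipid genes 4 were hosts, vit-6 (60.5), vit-2 (59.9), acs-13 (52.5) and pod-2 (36.0). The lists with 2 hosts differed in size. Ion channels had 2 of 252 (0.794%), best-18 and trp-1, and the forkhead, bHLH, GATA and T-box list had 2 of 124 (1.61%), the zinc finger genes lin-29 and ztf-17 (56.4). Axon guidance and adhesion had 2 of 86 (2.33%), zig-11 and zig-7, translation 2 of 74 (2.70%), ife-1 and cars-1, and splicing 2 of 73 (2.74%), rsp-3 and rsp-8. Nuclear hormone receptors had 3 hosts of 274 (1.09%), with nhr-208, nhr-28 and nhr-3 at 52.6, 47.0 and 35.9.

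Chemoreceptor genes had 4 hosts of 1310 (0.305%), which were srt-52, sre-45, srh-2 and srz-83. The lists of 412 F-box and MATH genes, 240 C-type lectins, 232 neuropeptide and receptor genes, 185 cytochrome P450 and conjugation genes and 179 collagens had 0 hosts. The other lists with 0 hosts had 53 to 114 genes. Apart from the list of 412, these lists are too small for 0 hosts to differ visibly from a share of 1.03%. For the list of 412 a difference from that share was not tested. Its median gene length was 1507.5 bases, against 2027 over all protein-coding genes. The smaller lists miss hosts of their own kind, such as the linker histone gene hil-5 (60.3), the histone methyltransferase gene lin-59 (65.5) and the homeobox gene zfh-2 (54.3). Median gene length runs from 384 bases in histones to 7681 in axon guidance genes, and these counts take no account of it.

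Of the 369 regions 362 had a ranked peak in each replicate. The median signal was 29.95 in the list of replicate 1 and 32.3 in that of replicate 2. Over these regions Pearson's r of log2 signal between replicates was 0.33 and Spearman's rho 0.18, given as a description over regions that share both libraries. The main list was chosen over both replicates together, and 64.5% of the 369 were in the conservative list of regions that repeat between them. For 336 regions inside windows and away from small RNA genes, r was 0.35 and rho 0.19. Among outside regions, r within coding exons was 0.076 over 74 regions and rho was of the opposite sign, at -0.20. In intergenic sequence outside windows r was 0.41 over 127. Of the 30 strongest regions, 28 were in the list of replicate 1 alone, 27 in that of replicate 2 alone and 25 in both.

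**Figure D5:**
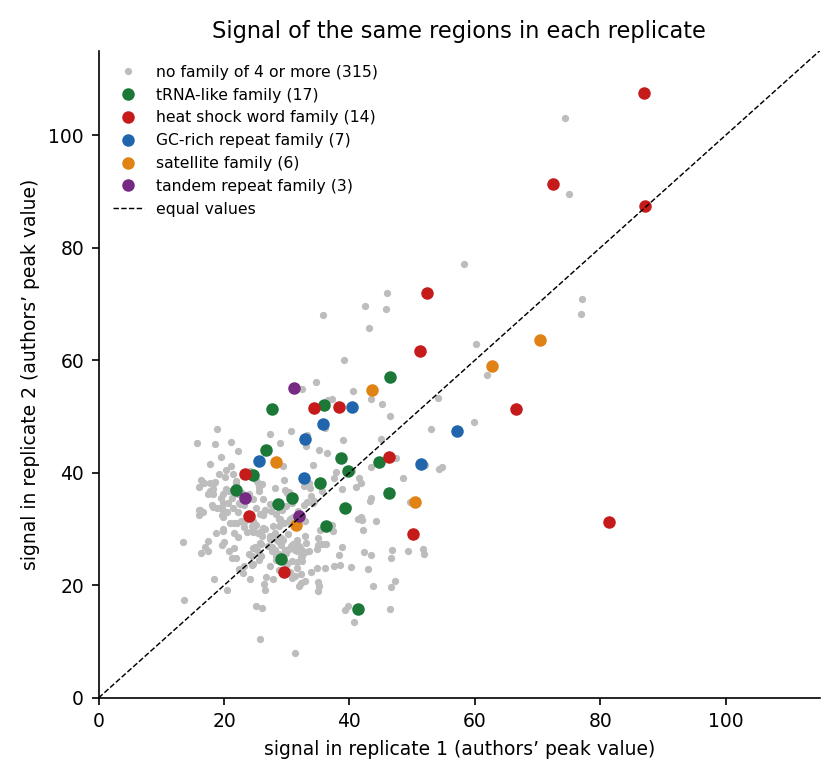
Signal of each outside region in replicate 1 (x axis) and replicate 2 (y axis), both the authors' peak values from that replicate's ranked list, for the 362 regions with a peak in each. Coloured points are sequence families of at least 4 members and the dashed line marks equal values; the heat shock word family reaches from the main cloud to 87.0 in replicate 1 and 107 in replicate 2 at pck-2.

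Few summits lay close to the limit of a promoter window. The 5 outside summits nearest to a window lay 4 to 22 bases beyond it, near C16C2.8, Y65B4BL.10, Y38E10A.8, C27D6.12 and F08B1.8, with signals from 47.1 to 61.9. The 5 nearest inside summits lay 6 to 18 bases within, near T24D8.10, sls-2.13, K08A2.12, F26A3.4 and fbxb-58, with signals from 58.4 to 71.7. Of the outside regions 26 were within 100 bases of a window, and 158 were more than 2000 bases from any gene start. Over all 369 the median distance to the nearest window was 1207 bases. Of the 369, 33 (8.94%) lay in the window of an annotated transcript start other than the gene start, among them those in pck-2 (185) and T26A8.4 (125). Another main region lay within 2000 bases of 81 (22.0%).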

How the data were processed

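Peak lists of 2 biological replicates of 1 group were used, grouped by the replicate number in the labels. Per the labels, the assembly was ce11 and chromatin was precipitated with an anti-GFP antibody; the sources used here name no aligner or peak caller. The authors deposited a ranked and a thresholded list for each replicate and for both together, made, per the text deposited with them, from filtered alignments and 1 control alignment. The signal of each peak was taken as the authors deposited it, with no stated scaling. The score of each ranked peak, deposited by the authors, is −log10 of the irreproducible discovery rate (IDR), a measure of how well ranks repeat; all 1046 peaks of the main list had at least 2.00 in 1 of the 2 ranked lists over both replicates. Sequencing depth is unknown, since no list holds read counts, and 4 signal columns for the separate inputs of the ranked lists were not used.

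Overlapping peaks were merged, and the strongest peak gave summit and signal. Genes came from Ensembl release 115 and sequence from the RefSeq genome, both WBcel235; coordinates are 1-based. Where annotations overlapped, the class was taken in the order coding exon, 3′ UTR, 5′ UTR, non-coding exon, intron, intergenic. A region was named after the protein-coding gene it lay in, the shortest where several overlapped, and otherwise after the gene with the nearest end. Replicate signal was that of the strongest overlapping peak in the replicate's ranked list. Families joined 200-base windows aligning at 80% identity or more over at least 50 bases (BLAST+ 2.17.0), and copies were alignments at 90% identity over at least 90 bases. Tiled windows lay every 1000 bases outside promoter windows, and every 10000 bases for copies. Intervals are exact Clopper-Pearson intervals at 95% (scipy 1.17.1). The steps that place summits were tested on made-up positions and gave the known answer at 11 of 11.

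With 1 group of 2 samples no comparison of groups could be tested, so results are counts, medians and values per replicate. Named were the 30 strongest regions, the 8 strongest of each class (5′ UTRs and non-coding exons together), genes with at least 2 regions, the 4 strongest of each gene list with 2 or more hosts, and the 5 summits nearest to each side of a window. Members, gene lists and words were chosen with earlier results of these data known. The families, their words and the other regions named within them were chosen after their values were seen. Other lists, windows, annotations and definitions were tried as alternatives.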

Additional observations from a re-analysis of the deposited data

How the results depend on the processing

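Of 91 values recomputed under another list, window or definition, 61 stayed within 1.5 times a count or inside the interval of a share or median, and 30 moved. Some of the 61 could hardly move. Taking introns before exons changes only the class, so the total count, share and median signal stayed as they were. Leaving aside regions near small RNA genes took away 1 of the 369. The number outside was 138 in the stronger 50% of the main list, 684 with starts of protein-coding genes only, and 89 to 102 in the list of a single replicate. The share outside was 27% in the stronger 50%, 47.5% with a window of 500 to 100 bases, 26.1% with 2000 to 200 bases, 32.8% with every transcript start, 66.9% with coding starts only and 27.6 to 29.2% in single replicates. In the stronger 50%, introns held 39, coding exons 17, 3′ UTRs 10 and intergenic sequence 65; in single replicates these were 23 to 26, 12 to 15, 6 to 11 and 44 to 46. The conservative list held 24 regions in 3′ UTRs. The median signal was 62.6 in the conservative list, 78.9 in the stronger 50%, 63.6 with coding starts only and 43.5 to 47.9 in single replicates, whose scale is lower. The stronger 50% and the single lists are smaller by construction, and other causes were not tested. At 100% identity the share with a second copy was 1.36%. No paired analysis was possible because there is 1 group. Unknown depth limits what an absent region can show.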
